A study of Mus musculus with 3 samples.

Results

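In male gonads of Cyp26b1-/- mouse embryos, 84 genes kept about the same level at E12.5 and E13.5 and stood at least 0.8 log2 units higher at E14.5. They were drawn from 12537 genes with a RefSeq symbol whose brightest probe passed the scanner's call of well above background on each of the 6 arrays, of 16620 named genes on the array, and make up 0.67% of the 12537. A gene was chosen where its E14.5 mean exceeded its E13.5 mean by 0.8 or more, both E14.5 arrays lay above both E13.5 arrays, and the E13.5 and E12.5 means differed by less than 0.5. The stage values chose the genes, so their differences between stages are given as a description with no test. Levels are log2 signal minus the array's own 75th percentile, so a negative level is dimmer than the 75th percentile of the probes on that array.

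The 3 groups were E12.5, E13.5 and E14.5 gonads, with 2 one-colour arrays of Cy3-labelled RNA at each stage, described by the series as biological duplicates. Every embryo was male, of the MCH mouse line and Cyp26b1-/-, so the loss of Cyp26b1 is shared by all groups, and arrays of a control genotype were not analysed here. The differences below are therefore differences of age within the knockout and say nothing about the effect of the deletion. The number of embryos behind an array is not given in the sources used here. The 4 arrays of E13.5 and E14.5 shared a slide, and the E12.5 arrays lay on a slide of their own, so the late step was measured within 1 slide, while the flat first step was measured across slides and cannot be told apart from a slide difference.

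Spots well above background made up 65.9% to 70.8% of those on each array, and duplicate arrays had a Pearson r over genes of 0.995 in the E12.5 pair, 0.996 in the E13.5 pair and 0.995 in the E14.5 pair. Testis markers were well above background on all 6 arrays, among them the Sertoli cell genes Sox9, Amh and Dhh, the germ cell genes Ddx4 and Dazl and the steroid genes Cyp11a1 and Star. The ovarian factor Foxl2 was so on 4 arrays, at levels of -5.35 to -6.11. The Cyp26b1 probe was bright on all 6 arrays, at 3.78 to 4.92. Whether this probe lies in the deleted part is not given in the sources used here, so it does not check the genotype.

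At these stages the fetal testis is organised into cords of Sertoli cells and germ cells, with fetal Leydig cells, smooth-muscle-like peritubular cells, vessels and macrophages between and around them. Cyp26b1 is the enzyme with which Sertoli cells break down retinoic acid, and in its absence retinoic acid reaches the male germ cells and brings them into meiosis. Early in this window the meiotic and Leydig programmes are already under way, so a gene that stays flat until E13.5 and is higher at E14.5 follows another time course. The tissue was measured in bulk, so more cells of a type and more RNA per cell cannot be told apart.

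Promoters of 4 of the genes are shown for the letters they hold near the start site. RefSeq promoter entries (GRCm38.p6, 250 bases before to 50 after the annotated start) were matched for 60 of the 84 genes, with 71 promoters in all. Capitals mark matches to a motif searched on both strands: GTTGCC, the core of sites of RFX factors, and GGGCGG, the GC box, in Lypd3, the NF-kB site in Ltb, the interferon response element (ISRE) in Oas1a, and GTTGCC again in Ccdc113. Lypd3 and Ltb are among the 25 genes with the largest late difference, Oas1a is induced by interferon, and Ccdc113, a protein of cilia, is shown because the RFX family member Rfx3, a regulator of cilium genes, is itself one of the 84. The Lypd3 entry lies at chr7:24636320-24636619 on the plus strand, Ltb at chr17:35194257-35194556 on the plus strand, Oas1a at chr5:120907476-120907775 on the minus strand and Ccdc113 at chr8:95533850-95534149 on the plus strand.
Lypd3: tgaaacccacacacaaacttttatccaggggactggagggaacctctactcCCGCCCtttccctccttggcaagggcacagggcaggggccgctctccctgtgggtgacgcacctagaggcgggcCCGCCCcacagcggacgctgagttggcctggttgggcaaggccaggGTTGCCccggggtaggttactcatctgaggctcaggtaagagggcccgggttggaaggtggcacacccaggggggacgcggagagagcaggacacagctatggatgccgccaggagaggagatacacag
Ltb: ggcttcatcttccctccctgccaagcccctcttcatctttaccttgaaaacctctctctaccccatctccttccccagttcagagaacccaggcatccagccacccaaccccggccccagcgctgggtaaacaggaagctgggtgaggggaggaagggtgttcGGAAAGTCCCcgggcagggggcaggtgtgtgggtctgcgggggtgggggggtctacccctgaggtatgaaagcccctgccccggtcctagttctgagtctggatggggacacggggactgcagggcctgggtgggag
Oas1a: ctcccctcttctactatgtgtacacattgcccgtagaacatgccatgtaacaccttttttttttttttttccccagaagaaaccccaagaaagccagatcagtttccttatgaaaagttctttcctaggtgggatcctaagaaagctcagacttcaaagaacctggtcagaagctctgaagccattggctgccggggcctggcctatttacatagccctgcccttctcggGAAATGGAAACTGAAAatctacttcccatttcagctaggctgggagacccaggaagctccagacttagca
Ccdc113: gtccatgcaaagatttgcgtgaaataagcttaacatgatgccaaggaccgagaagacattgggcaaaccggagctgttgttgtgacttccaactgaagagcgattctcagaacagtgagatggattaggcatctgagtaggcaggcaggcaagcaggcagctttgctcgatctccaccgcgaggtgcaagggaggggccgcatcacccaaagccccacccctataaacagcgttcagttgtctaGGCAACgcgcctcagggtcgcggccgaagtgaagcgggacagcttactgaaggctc

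In Oas1a the capitals join 2 overlapping matches to the interferon response element, the first of them 20 bases before the start. The GTTGCC match of Ccdc113, read as GGCAAC on the strand shown, lies 6 bases before the start. Over the 71 promoters, the NF-kB site was found in 23 (32.4%), against 20.7% of all 32851 RefSeq promoters, and GTTGCC in 12 (16.9%), against 12.5%. The interferon element was found in 3 (4.23%), those of Hrh1, Mylk and Oas1a, against 3.44% of all promoters. The GC box was in 28 (39.4%) against 35.7%, the CCAAT box in 26 (36.6%) against 37.4%, and the TATA box (TATAAA) in 11 (15.5%) against 13.6%. The letters CNCCTCAG, bound by the meiosis factor STRA8, were in 10 (14.1%) against 7.94%. The nuclear receptor motif AGGTCA was in 10 (14.1%) against 16.3%, and the full SF-1 site CAAGGTCA, which overlaps it, in 0 against 1.56%. The CArG box of smooth muscle genes was found in 0 promoters against 1.63%. The CRE core TGACG was in 8 (11.3%) against 20.8%, and the E-box CACGTG in 3 (4.23%) against 7.15%. The RFX, NF-kB, interferon and CArG motifs were added after the 84 genes were known. None of these shares was tested, and a match describes letters in this window and is neither a binding site nor a cause.

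Between E13.5 and E14.5 the difference of the 84 genes ran from 0.80 to 2.13 with a median of 1.05, which is 1.75-fold to 4.36-fold with a median of 2.07-fold. It was 2-fold or more in 44 genes and below 2-fold in 40. The first step, E13.5 minus E12.5, ran from -0.49 to 0.49 with a median of 0.025, and was upward in 46 genes and downward in 38. Over the 2 days, E14.5 minus E12.5 was 0.35 to 2.49 with a median of 1.08. The median level over the 84 genes was -3.96 in E12.5 gonads, -3.91 in E13.5 gonads and -2.8 in E14.5 gonads. For all 12537 detected genes the median difference was -0.03 in the late step and 0.04 in the first, and E14.5 was above E13.5 in 45.4% of them.

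**Figure D1:**
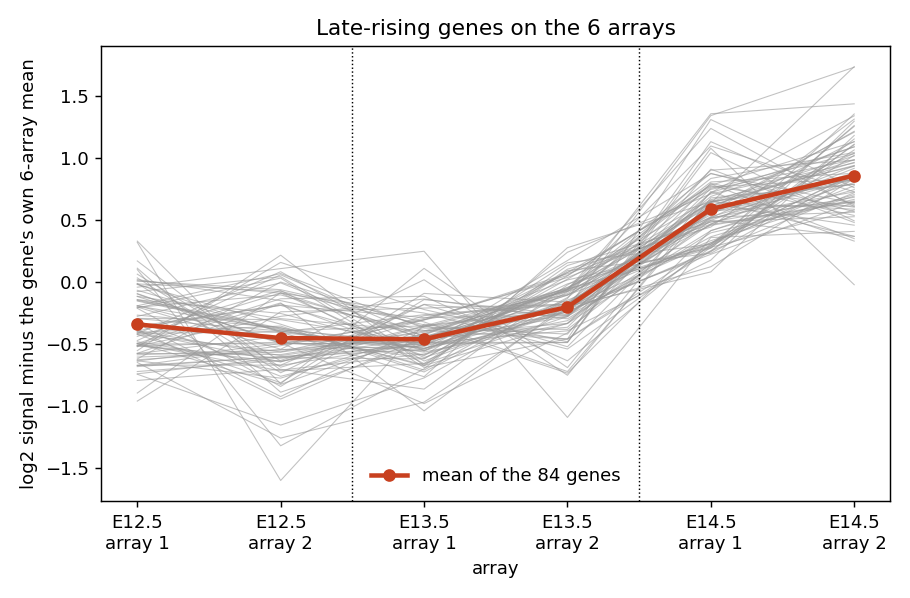
Each thin line is 1 of the 84 genes, plotted at each of the 6 arrays as its log2 level minus its own mean over the arrays, and the thick line is their mean. The mean line lies at -0.34 and -0.45 on the E12.5 arrays, -0.46 and -0.20 on the E13.5 arrays and 0.59 and 0.86 on the E14.5 arrays.

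The plot of the 84 lines shows how closely the flat first step and the late difference were kept by the rule. In 82 of the 84 genes both E14.5 arrays also lay above both E12.5 arrays, a count that the rule all but fixes and from which nothing is read. Among all detected genes 39.2% had both E14.5 arrays above both E12.5 arrays, and 25.4% had both above both E13.5 arrays, which the rule itself asks of the 84. The exceptions were Casp1, the protease that matures interleukin-1 beta, and Hp, which encodes haptoglobin. The gap from the lower E14.5 array to the higher E13.5 array was 0.11 to 1.55 with a median of 0.65.

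Late differences without a flat start were more common. Of the detected genes, 309 were higher at E14.5 than at E13.5 by 0.8 or more, and 306 of these met the condition on order. In 193 of the 306 the first step was already upward by 0.5 or more, in 29 it was downward by 0.5 or more, and the other 84 are the genes described here. At the 0.8 limit the genes just inside were Cpa3 at 0.804, Spock2 at 0.807 and Tmem252 at 0.812, and those just outside were Ccdc33 at 0.798, Osmr at 0.797 and Fos at 0.797. At the 0.5 limit on the first step the genes just inside were Lypd3 at 0.495, Cck at -0.494 and F13a1 at -0.491, and those just outside were Spon2 at 0.502, Casp12 at 0.506 and Defb42 at 0.506. Neither limit falls in a gap between genes.

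**Figure D2:**
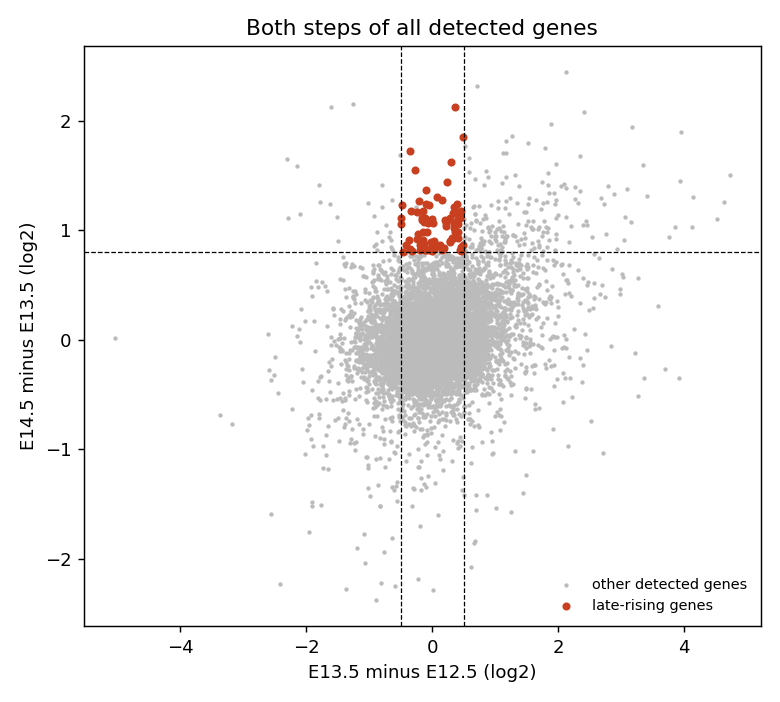
Each point is a gene detected on all 6 arrays, with the E13.5 minus E12.5 difference on the horizontal axis and the E14.5 minus E13.5 difference on the vertical axis, both in log2 units. The 84 chosen genes fill the box above 0.8 and between -0.5 and 0.5, and most other genes past 0.8 lie to the right of it.

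The 84 genes were dim. Their mean level over the 6 arrays had a median of -3.62, against 0.32 for all detected genes, and 62 of them (73.8%) lay in the lowest of 4 equal bins of level. Below the median level of detected genes were 81 of the 84, and 1, Mylk, lay in the highest bin. Since the files hold no probe sequences, levels are compared here only as signals of single probes. Duplicates of these genes were also farther apart than usual. The median absolute gap between duplicates in the 84 genes was 0.23 for the E12.5 pair, 0.36 for the E13.5 pair and 0.37 for the E14.5 pair, against 0.16, 0.12 and 0.14 in all detected genes. Another background correction, normexp with an offset of 50, lowered the late difference by over 1.5 times in 19 of the 44 genes among the 84 that were named by rule. It gave 1.22 for Lypd3, 1.05 for Ncan, 0.84 for Cyp2c55, 0.81 for S100a8 and 0.79 for Gm5622, whose values under the scanner's own correction are given further on. Nrn1l, Adgrb3, Stmn4, Lingo2, Ccdc122 and Ceacam20 had 0.58 to 0.78 with it. Ccl2, Oas1a, Hp, Tmem252, Arfgef3, Ms4a4d, Casp1 and Cpa3 had 0.29 to 0.5.

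**Figure D3:**
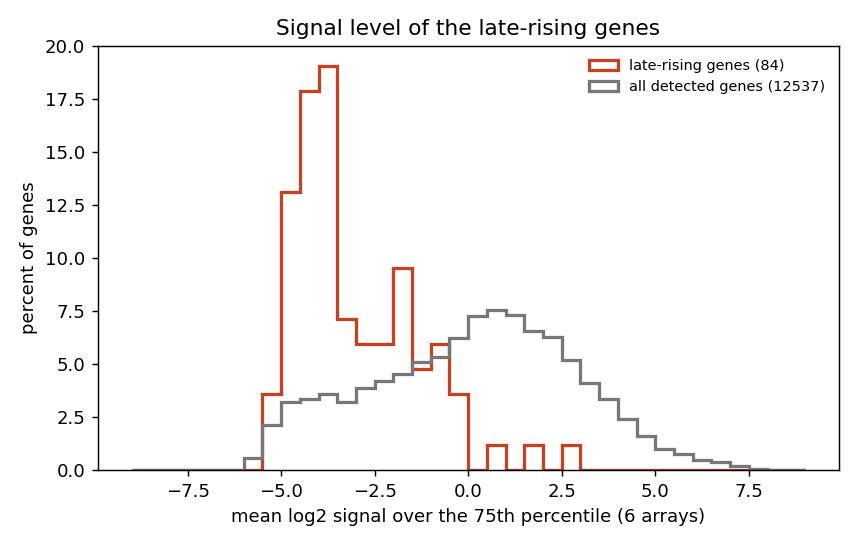
The vertical axis gives the percent of genes in each bin of mean level over the 6 arrays (horizontal axis, log2 units over the array's 75th percentile), for the 84 genes and for all 12537 detected genes. The 84 genes centre on a median of -3.62, far left of the median of 0.32 of all detected genes.

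The duplicates also differed in one direction. The second array was above the first in 66 of the 84 genes at E14.5 and in 66 at E13.5, and in 55 at both, while among all detected genes the second array was above the first in 40.5% at E14.5 and 43.6% at E13.5. At E12.5 the second array was higher in 35 of the 84, against 48.2% of detected genes. Measured from the E13.5 mean, the late difference had a median of 0.87 on the first E14.5 array and 1.14 on the second. It was 0.8 or more on both arrays in 42 genes, on the second alone in 35 and on the first alone in 7. Over the 12537 genes, the gaps between duplicates at E13.5 and E14.5 had a Pearson r of 0.265, and those at E12.5 had -0.061 with either later stage, where genes are not independent and arrays share a slide. The part of this in the late differences was not tested.

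Clic6 showed the largest difference. It encodes a member of the chloride intracellular channel family. Its level was -2.38 and -2.99 on the E12.5 arrays, -2.70 and -1.94 on the E13.5 arrays and -0.39 and 0.00 on the E14.5 arrays. Both E14.5 arrays stood more than 1.5 units above every earlier array, and the late difference was 2.13 ± 0.32 (SE from limma, n = 2 arrays a stage), or 4.36-fold.

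Lypd3, a GPI-anchored surface protein of the Ly6 family whose promoter is shown above, came next. It lay at -4.45 and -4.86 on the E12.5 arrays, -4.48 and -3.84 on the E13.5 arrays and -2.35 and -2.27 on the E14.5 arrays. The E14.5 arrays agree within 0.08 and lie well above the rest, with a late difference of 1.85 ± 0.24 (3.61-fold). Its first step of 0.495 was the closest of the 84 to the upper limit. Among the 9 surface and matrix genes, Lypd3 included, with a median late difference of 1.02, the second E14.5 array was the higher in every one. Art4, a surface ADP-ribosyltransferase family protein, was at -3.11 and -2.87 on the E12.5 arrays, -3.59 and -3.36 on the E13.5 arrays and -2.61 and -1.88 on the E14.5 arrays. Its late difference was 1.23 and its first step -0.48, so against E12.5 the E14.5 mean was 0.75 higher. Ltbp2, a latent TGF beta binding protein family member found on microfibrils, was at -2.85 and -3.18 on the E12.5 arrays, -2.78 and -2.40 on the E13.5 arrays and -1.79 and -1.14 on the E14.5 arrays (difference 1.13 ± 0.26). Ceacam20, a CEA-family adhesion protein, had a difference of 1.12, with E14.5 values of -3.99 and -3.37 above E13.5 values of -4.85 and -4.76. Svep1, a large extracellular matrix protein, was among the brightest of the 84, at 0.90 and 1.53 at E14.5 and 0.00 and 0.76 at E13.5. The lower E14.5 array of Svep1 was only 0.14 above the higher E13.5 array, and its difference of 0.83 was 0.45 to 1.21 when single arrays were left out. Spock2, a testican proteoglycan, Fap, a surface protease of activated fibroblasts, Fibin and the cadherin Cdh20 completed the group, at 0.81 to 1.02. A second Cdh20 probe, above background on all 6 arrays, gave 0.15 beside the 0.82 of the brightest one and did not meet the order.

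**Figure D4:**
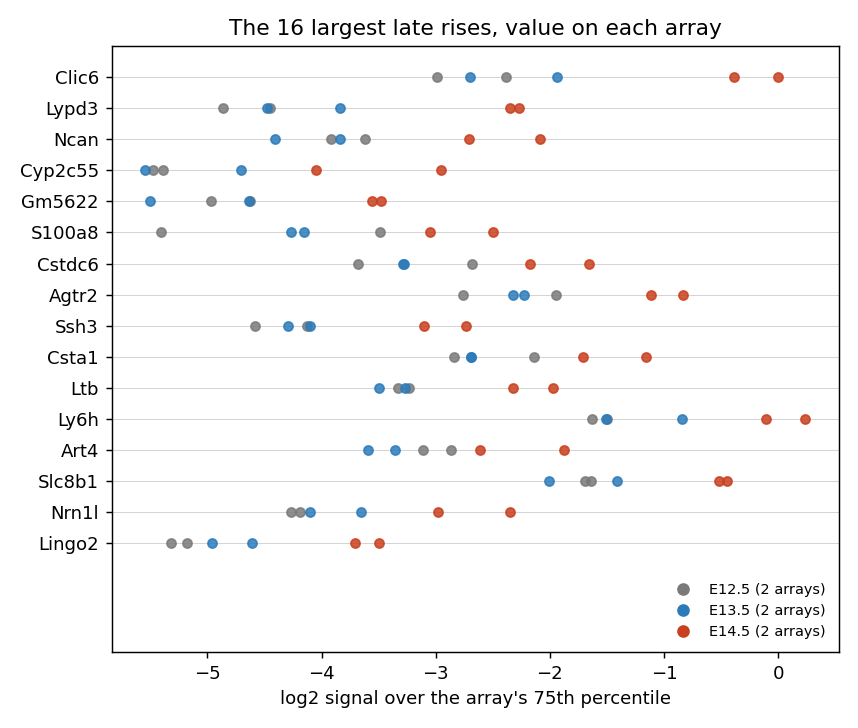
The 16 genes with the largest E14.5 minus E13.5 difference, one row each, with the level on each of the 6 arrays on the horizontal axis in log2 units over the array's 75th percentile. In each row the 2 E14.5 points lie to the right of the 4 earlier points, by the widest margin in Clic6 and Lypd3.

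The plot of the 16 largest differences also shows how far apart duplicates could lie. Genes assigned to immune and inflammatory roles were the most numerous, 21 of the 84, with a median late difference of 0.92. These role groups were made after the 84 genes were known and carry no test. Roles were not assigned to the other detected genes, so the groups have no background share and nothing is read from their sizes. S100a8, a calcium-binding protein of neutrophils and other myeloid cells, was at -3.49 and -5.41 on the E12.5 arrays, -4.15 and -4.27 on the E13.5 arrays and -2.5 and -3.05 on the E14.5 arrays. The E12.5 duplicates of S100a8 were nearly 2 units apart, and the late difference was 1.44 ± 0.58 (2.71-fold). The stefin A family genes Csta1 and Cstdc6, inhibitors of cysteine proteases, had like patterns. Csta1 was at -2.14 and -2.84 on the E12.5 arrays, -2.69 and -2.69 on the E13.5 arrays and -1.16 and -1.71 on the E14.5 arrays. Cstdc6 was at -2.68 and -3.68 on the E12.5 arrays, -3.29 and -3.28 on the E13.5 arrays and -1.66 and -2.17 on the E14.5 arrays. The late differences were 1.26 and 1.37, and that of Csta1 was 0.77 with the mean of its probes. Both genes lie on chromosome 16 with 6 protein-coding genes between them, and whether their probes share signal from related copies was not tested.

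Ltb, the TNF family cytokine lymphotoxin beta, was at -3.23 and -3.33 on the E12.5 arrays, -3.50 and -3.27 on the E13.5 arrays and -2.32 and -1.97 on the E14.5 arrays. The 4 earlier arrays lie close together and both E14.5 arrays lie above them, at a difference of 1.24 ± 0.16. Ms4a4d, a membrane protein of the Ms4a family, was one of the dimmest, with -4.58 and -4.84 at E14.5 and -6.05 and -5.71 at E13.5. F13a1, the A subunit of coagulation factor XIII, which macrophages also make, was at -1.52 and -1.58 on the E12.5 arrays, -1.85 and -2.24 on the E13.5 arrays and -1.09 and -0.76 on the E14.5 arrays. F13a1 was thus lowest at E13.5, with a first step of -0.491, and its E14.5 mean was 0.62 above that of E12.5 and 1.11 above that of E13.5.

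Class I antigen presentation was represented by 3 genes. H2-Q10, a secreted class I molecule, was at 1.15 and 1.22 on the E12.5 arrays, 1.28 and 1.90 on the E13.5 arrays and 2.57 and 2.81 on the E14.5 arrays. H2-Q1, of the same family, was at -0.70 and -0.56 on the E12.5 arrays, -0.74 and -0.10 on the E13.5 arrays and 0.54 and 0.81 on the E14.5 arrays. The late difference was 1.10 in H2-Q10 and 1.09 in H2-Q1, and on both probes the second E13.5 array lay over 0.6 above the first. H2-Q10 has 3 further probes above background on all 6 arrays, with late differences of 0.73, 0.74 and 1.17 and first steps of 1.65, 1.33 and 0.55. None of these 3 probes had a first step under 0.5, so the flat start of H2-Q10 holds for its brightest probe alone. Tap2, which carries peptides to class I molecules, was at -4.02 and -3.77 at E14.5 and -5.43 and -4.49 at E13.5. H2-Q1 and H2-Q10 lie on chromosome 17 with 4 protein-coding genes between them, and Ltb lies near H2-Q1 with 6 between. The classical class I gene H2-D1, which is not among the 84 because its first step was 0.67, had a late difference of 1.22.

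Further genes of macrophages and mast cells were among the 84. Mrc1, the macrophage mannose receptor, was at -2.90 and -2.48 at E14.5 and -3.76 and -3.33 at E13.5, and Lyz1, a lysozyme, was at -1.87 and -1.48 at E14.5 and -2.42 and -2.58 at E13.5. The monocyte attractants Ccl2 and Ccl12, neighbours on chromosome 11 with 2 protein-coding genes between them, had late differences of 0.82 and 1.09. Fcgr2b, an inhibitory Fc receptor, Pirb, an inhibitory receptor of myeloid cells, P2rx7, an ATP-gated channel, and Pld4 had differences of 0.86 to 0.92. Cpa3, the carboxypeptidase of mast cells, was at -5.02 and -4.87 on the E12.5 arrays, -4.73 and -6.07 on the E13.5 arrays and -4.62 and -4.57 on the E14.5 arrays. In Cpa3 a single low E13.5 array set the result, for without the second E13.5 array the difference was 0.14. Casp1 was at -3.06 and -4.16 at E14.5, a gap of 1.10 between duplicates, and its difference of 0.88 was 0.33 without the first of them. Hp, a plasma protein of the liver, was at -3.87 and -5.02 on the E12.5 arrays, -4.09 and -4.89 on the E13.5 arrays and -3.47 and -3.87 on the E14.5 arrays, so stages overlapped. Its late difference of 0.82 was 0.42 without the second E13.5 array. Oas1a, an interferon-induced enzyme that makes 2'-5' oligoadenylates, was at -3.71 and -3.52 at E14.5 and -4.66 and -4.21 at E13.5.

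The list of macrophage and other immune genes held 5 of the 84 among its 33 detected genes, Lyz1, Mrc1, Ccl2, S100a8 and Cpa3, beside 0.67% of detected genes. Over the 33 genes the median late difference was 0.54 and 30 were higher at E14.5, beside a median of -0.03 for all detected genes. Without the 5, the median was 0.49 and 25 of 28 were higher. The sum of linear signals over the 33 genes, in units of the 75th percentile, was 13.2 and 14.3 on the E12.5 arrays, 14.8 and 15.1 on the E13.5 arrays and 23.1 and 23.9 on the E14.5 arrays. The macrophage receptor gene Csf1r was at -1.32 and -1.11 at E14.5 and -1.63 and -1.68 at E13.5, and the pan-leukocyte gene Ptprc was at -4.13 and -4.04 at E14.5 and -4.78 and -4.73 at E13.5. Itgam, Mcpt4 and Tpsb2 were above background on no array. The class I gene H2-D1 alone gave 5.95 and 7.15 of the sum on the E14.5 arrays and 2.18 and 3.59 on the E13.5 arrays. Without H2-D1, B2m and Kit, which other cells also express, an alternative chosen after seeing the data, the sum over 30 genes was 6.04 and 5.55 on the E12.5 arrays, 7.02 and 6.23 on the E13.5 arrays and 11.4 and 10.5 on the E14.5 arrays. This sum was higher at E14.5 too, but both sums hold the 5 genes that the rule chose for being higher then. Without the 5, the mean level of the other 28 genes was -2.53 and -2.49 on the E12.5 arrays. It was -2.35 and -2.45 on the E13.5 arrays and -1.84 and -2.0 on the E14.5 arrays. The part of such a difference in that of the immune genes among the 84 was not tested.

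Genes known from neurons and synapses numbered 13, with a median late difference of 1.06. Ncan, the brain matrix proteoglycan neurocan, was at -3.62 and -3.92 on the E12.5 arrays, -4.41 and -3.84 on the E13.5 arrays and -2.71 and -2.09 on the E14.5 arrays. Its difference of 1.73 ± 0.28 was the third largest, and both E14.5 arrays lay above the 4 earlier ones. Ly6h, a GPI-anchored Ly6 protein of brain, was at -1.63 and -1.5 on the E12.5 arrays, -1.51 and -0.84 on the E13.5 arrays and -0.11 and 0.24 on the E14.5 arrays. The neuritin genes Nrn1 and Nrn1l, which encode small anchored proteins that promote neurite growth, were both in the group. Nrn1 was at -0.33 and -0.67 on the E12.5 arrays, -0.11 and -0.88 on the E13.5 arrays and 0.55 and 0.66 on the E14.5 arrays. Nrn1l was dimmer, at -2.35 and -2.98 at E14.5 and -4.10 and -3.65 at E13.5, and the differences were 1.10 and 1.21. That of Nrn1 was 0.72 without the second E13.5 array. Nrn1 and F13a1 are adjacent protein-coding genes on chromosome 13, and Ly6h and Gpihbp1 are adjacent on chromosome 15.

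Lingo2, a leucine-rich repeat membrane protein of neurons, was at -3.71 and -3.50 at E14.5 and -4.96 and -4.61 at E13.5. Adgrb3, a synaptic adhesion receptor, was at -3.12 and -2.53 at E14.5 and -4.11 and -3.77 at E13.5. In both genes the E14.5 arrays were clear of the rest, with differences of 1.18 and 1.12. Cck, the peptide cholecystokinin, was lowest at E13.5 like F13a1, with -1.05 and -1.12 on the E12.5 arrays, -1.38 and -1.78 on the E13.5 arrays and -0.43 and -0.60 on the E14.5 arrays. Stmn4, a stathmin that binds tubulin, was at -3.61 and -2.54 at E14.5, 1.07 apart, and -4.30 and -3.97 at E13.5. Its difference of 1.06 was 0.52 without the second E14.5 array. Mapt, the microtubule protein tau, had a difference of 0.92 on its brightest probe and a first step of 0.32. Its 2 other detected probes had late differences of 0.79 and 1.04 but first steps of 1.08 and 1.19. Hepacam, a glial adhesion protein, Tenm2, a teneurin, Lin7a, a synaptic scaffold, and Pclo, the presynaptic protein piccolo, had differences of 0.82 to 1.06. None of the 84 belonged to the list of 27 general neuronal and glial markers, beside a share of 0.67% among all detected genes. Among its 16 detected genes, 11 were higher at E14.5 with a median late difference of 0.14, and Elavl3 and Tubb3, at 1.77 and 1.06, had first steps of 0.52 and 0.76.

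Channels, transporters and receptors other than those above numbered 11 with Clic6, with a median late difference of 1.11. Agtr2, the angiotensin II type 2 receptor, was at -2.76 and -1.95 on the E12.5 arrays, -2.32 and -2.23 on the E13.5 arrays and -1.11 and -0.83 on the E14.5 arrays. Slc8b1, the mitochondrial sodium and calcium exchanger, was at -1.69 and -1.64 on the E12.5 arrays, -2.01 and -1.41 on the E13.5 arrays and -0.52 and -0.45 on the E14.5 arrays. For both genes the E14.5 arrays lay at least 0.84 above the highest earlier array, and the differences were 1.30 ± 0.27 and 1.23 ± 0.20. Adgrg2, an adhesion receptor of the efferent ducts of the male tract, was at -3.47 and -2.61 at E14.5 and -4.33 and -3.96 at E13.5. Its difference of 1.11 was 0.68 without the second E14.5 array. The histamine receptor Hrh1, the orphan receptor Mrgprf, the cyclic nucleotide-gated channel subunit Cngb1, the gastric proton pump subunit Atp4a, the magnesium transporter Slc41a3 and Slc35f3 had differences of 0.82 to 1.11.

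Cytochrome P450 and lipid genes numbered 8, with a median of 0.98, and the second E14.5 array was the higher in all 8. Cyp2c55, a cytochrome P450 of the 2C family, was at -5.48 and -5.39 on the E12.5 arrays, -5.55 and -4.71 on the E13.5 arrays and -4.05 and -2.95 on the E14.5 arrays. Its difference of 1.63 ± 0.41 came with gaps of 1.10 and 0.85 between the E14.5 and the E13.5 duplicates, and it was 1.07 without the second E14.5 array. Cyp2d12 and Cyp2d22, relatives on chromosome 15 with 4 protein-coding genes between them, had differences of 1.07 and 0.98. Scd1, the stearoyl-CoA desaturase that makes monounsaturated fatty acids, was at -2.02 and -1.95 at E14.5 and -3.13 and -2.82 at E13.5. Gpihbp1, which holds lipoprotein lipase on capillary endothelium, was even between duplicates, with -0.06 and -0.02 at E14.5 and -0.87 and -0.85 at E13.5. Its difference of 0.81 therefore lies near the limit but with little spread. Apoc4, an apolipoprotein, Ces1d, a carboxylesterase, and Alox12e, a lipoxygenase, had differences of 1.11, 0.92 and 0.84.

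Muscle and cytoskeletal genes numbered 6, with a median of 1.04. Myh11, the smooth muscle myosin heavy chain, was at -1.8 and -2.02 on the E12.5 arrays, -1.96 and -1.20 on the E13.5 arrays and -0.86 and 0.01 on the E14.5 arrays. Mylk, the kinase of the myosin light chain and the brightest of the 84, was at 2.5 and 2.40 on the E12.5 arrays, 2.09 and 2.90 on the E13.5 arrays and 3.25 and 3.45 on the E14.5 arrays. In both genes the second E13.5 array lay about 0.8 above the first. Without the second E14.5 array the difference of Myh11, 1.16, was 0.72, and without the first E13.5 array that of Mylk, 0.85, was 0.45. The smooth muscle list held these 2 among 19 detected genes, of which 14 were higher at E14.5, with a median late difference of 0.35. The median first step of the list was 0.33, with 1.52 in Acta2, 1.51 in Tagln and 1.85 in Cnn1 but -0.12 in Actg2 and Smtn and -0.76 in Srf. Late differences were 0.66 in Acta2, 0.69 in Tagln and 1.34 in Cnn1. Ssh3, a slingshot phosphatase that activates cofilin, was at -3.10 and -2.73 at E14.5 and -4.29 and -4.10 at E13.5, a difference of 1.28. Sptb, the beta spectrin of red cells, and Myh1, a fast skeletal myosin, had differences of 1.11 and 0.89.

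Transcription and chromatin genes numbered 6, with a median of 0.96. Morc1, which male germ cells need to silence transposons and complete spermatogenesis, was at -1.24 and -1.06 on the E12.5 arrays, -1.39 and -1.07 on the E13.5 arrays and -0.79 and 0.31 on the E14.5 arrays. Its E14.5 duplicates were 1.10 apart, and without the second the difference of 0.99 was 0.44. Morc1 was the only one of the 84 in the list of male germ cell and piRNA genes, whose 18 detected genes had a median first step of 0.91 and a median late difference of 0.12. Rfx3 was at -4.00 and -3.59 at E14.5 and -5.00 and -4.78 at E13.5, and the homeobox or DM-domain factors Dbx2, Dmrt2, Alx4 and Onecut2 had differences of 0.89 to 1.06. A second Rfx3 probe, above background on 5 arrays, gave 0.24 beside the 1.09 of the brightest one and did not meet the order. Dmrt2, Rfx3 and Tmem252 lie along chromosome 19, with 5 protein-coding genes between Dmrt2 and Rfx3 and 8 between Tmem252 and Dmrt2.

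The 10 genes left had a median of 0.96. Gm5622 was at -4.97 and -4.63 on the E12.5 arrays, -5.50 and -4.64 on the E13.5 arrays and -3.56 and -3.48 on the E14.5 arrays, with a difference of 1.55, and its second detected probe gave 0.63. Ccdc122 had a difference of 1.17, with -3.90 and -3.63 at E14.5 and -5.12 and -4.74 at E13.5. Tmem40, a membrane protein, was brighter, with 0.18 and -0.19 at E14.5 and -1.36 and -0.98 at E13.5. In all 3 the E14.5 arrays were clear of the 4 earlier ones. Vps13a, a lipid transfer protein, Ccdc113, Arfgef3, Mtus2, Gm4788, BC051665 and Tmem252 had differences of 0.81 to 1.07. For Arfgef3 a second detected probe gave -0.08 beside the 0.87 of the brightest one, which was 0.35 without the first E13.5 array. For Mtus2 a second detected probe gave 0.38 beside 0.82.

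**Figure D5:**
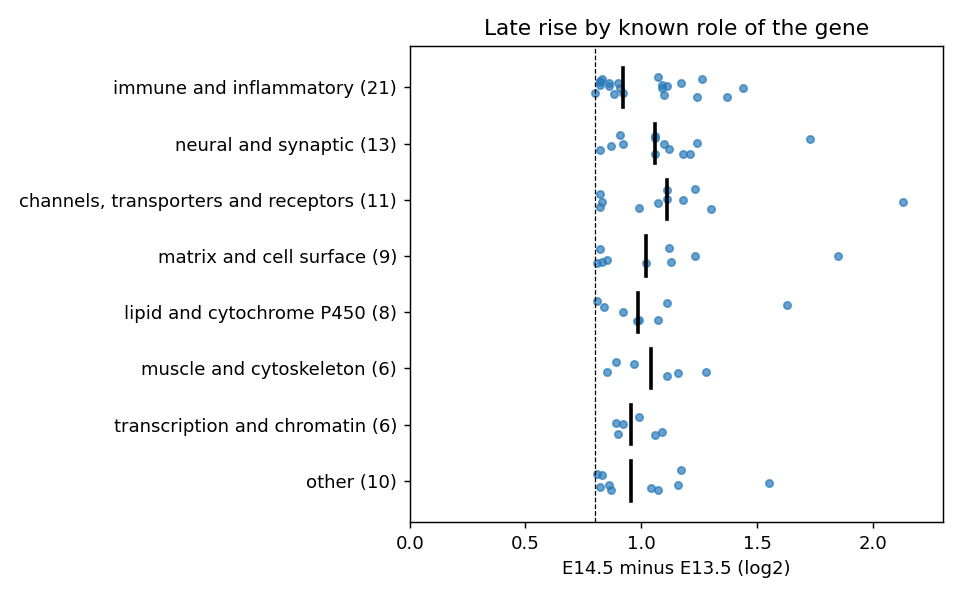
The E14.5 minus E13.5 difference in log2 units of each of the 84 genes, grouped by role, with 1 point a gene and the group median marked. Medians run from 0.92 in the immune and inflammatory group to 1.11 in channels, transporters and receptors, and single genes reach 1.73 or more in the groups of Clic6, Lypd3 and Ncan.

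The plot by role shows overlapping ranges, with no role group apart from the others. Of 34 gene lists for the cell types and pathways of the gonad, 28 held none of the 84, and 73 of the 84 were in no list. The 84 make up 0.67% of detected genes, so lists of these sizes would mostly hold none. Nothing is read from a count of 0. Besides the lists above, Oas1a was 1 of 23 detected interferon genes, Adgrg2 1 of 14 coelomic surface genes and Hp 1 of 9 liver and plasma genes. Without Oas1a, 13 of 22 interferon genes were higher at E14.5, with a median late difference of 0.21. Without Adgrg2, 1 of 13 coelomic surface genes was higher, with a median of -0.21. Without Hp, 7 of 8 liver and plasma genes were higher, with a median of 0.19. The meiosis list held 0 of its 27 detected genes, with a median first step of 1.5 and a median late difference of 0.45. The fetal Leydig and steroid list also held 0 of 23, with a median first step of 0.68 and a median late difference of 0.57. In these lists 9 and 7 genes met the limit of 0.8 and the order in the late step without a flat first step. The erythroid list, 17 detected genes with 0 of the 84, had a median late difference of -0.05, and the list of mesonephros, duct and kidney genes, 18 with 0 of the 84, had -0.04. The spermatid and cilium list, 12 detected genes with 0 of the 84, had a median of 0.09.

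Several probes bore on the same gene in 29 of the 84. Of their 37 other probes, 22 were above background on all 6 arrays, in 18 genes. The late difference of these 22 probes was above 0 in 20 and 0.8 or more in 13, with a median of 0.82 and a highest value of 1.22. Probes of one gene share the same RNA and are not replicates. In the authors' deposited table, which holds 1 value a stage, log2 differences between E14.5 and E13.5 for the 84 genes ran from 0.69 to 2.01 with a median of 0.94. They lay a constant 0.11 to 0.12 below the differences given here, and the reference of its ratios is not stated.

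Outside the 84, the detected genes whose 6 values were most like their mean profile were Fgd6, Tubb6, Ctsk and Irgm2, with a Pearson r over the 6 arrays of 0.997, 0.997, 0.996 and 0.992. This likeness is a description over 6 arrays that share 2 slides. Fgd6, a FYVE-domain guanine nucleotide exchange factor, was at 1.61 and 1.8 at E14.5 and 1.13 and 1.26 at E13.5, and Tubb6, a beta tubulin, had a late difference of 0.37. Ctsk, the lysosomal protease cathepsin K, and Irgm2, an interferon-induced GTPase, had late differences of 0.71 and 0.65. All 4 fell short of the 0.8 limit and had first steps of -0.02 to 0.08.

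In the comparison of E14.5 with E13.5 over 13489 genes by limma, 6 genes (0.0445%) were called higher and 1 lower at a Benjamini-Hochberg adjusted p of 0.05, and 0 of the 84 were among them. At an unadjusted p below 0.05 there were 80 of the 84 and 2479 genes in all, from which nothing is read because the same contrast chose the 84. The 7 called genes were not above background on all 6 arrays and so could not be among the 84. An example is Prss45, at -4.84 and -4.62 at E14.5 and -6.44 and -6.56 at E13.5. The fit had 2 arrays a stage and 3 residual degrees of freedom.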

How the data were processed

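Per the file headers, the deposited scanner files hold spot intensity that Agilent Feature Extraction 9.5 had corrected for background and for spatial trends, with spot and local background medians and flags. The authors' deposited table holds 1 linear ratio per probe and stage, whose reference is not stated. Replicates are the 2 arrays of each sample, and their number limits precision. Here intensity was log2-transformed and each array's 75th percentile subtracted, without control and outlier spots. RefSeq accessions named 23545 probes of 16620 genes (GRCm38.p6), and the brightest of 5511 genes' several probes was used. Genome positions used here were those of RefSeq promoters, the chromosome of each gene and the order of protein-coding genes. Probe positions were not used. Limma 3.58.1 in R 4.3.3 (lmFit, eBayes, two-sided, Benjamini-Hochberg) fitted 13489 genes above background on both arrays of a stage and was tested on simulated data. Python 3.11.15, pandas 2.3.3, numpy 2.4.6 and matplotlib 3.10.9 were used.

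Named first were the 25 largest differences, up to 4 genes a list, 3 on each side of each limit, the called genes, genes with a detected probe at or below 0, the 5 brightest, the 5 with the widest E14.5 gap and 4 alike in profile. Other genes were named after their values were seen, to account for further members or to give a list's markers. The 84 genes, the lists, the role groups and the motifs were chosen with earlier results of these data known. Alternatives were median and quantile scaling, normexp, the mean of probes, other filters and limits, a replicate block, other fits and leaving out each array. Values of some members are not reported here.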

Additional observations from a re-analysis of the deposited data

How the results depend on the processing

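The number of genes meeting the rule, 84, was 65 with each array's median as the scale (56 of them shared with the 84), 67 after quantile normalization (60 shared) and 83 with the mean of all probes (69 shared). It was 38 with normexp background correction (28 shared), 146 with detection on both arrays of 1 stage, 246 with no detection filter, 44 with a late limit of 1.0, 200 with a late limit of 0.6, 49 with a first-step limit of 0.3 and 85 without the order. Leaving out an array gave 60 to 163 genes, namely 60 and 163 without the first and the second of E13.5, and 155 and 70 without the first and the second of E14.5. The rule was met under median, quantile and normexp settings by 24 of the 84, and without each array in turn by 14: Agtr2, Ssh3, Ltb, Slc8b1, Ccdc122, Ceacam20, Adgrb3, Apoc4, Sptb, Rfx3, Ccl12, Mrgprf, Scd1 and Alx4. All 84 late differences stayed above 0 under the 3 settings, with a lowest value of 0.72, 0.69 and 0.29. The median scale moved the median late difference of detected genes to -0.11. Normexp lowered the median of the 84 to 0.68, and its offset of 50 compresses dim genes. Of the 44 genes of the 84 named by rule, none changed sign, and 24 of their values, 18 of them under normexp, moved by more than the spread between duplicates. None of the 24 came from leaving out an array, which shifts a stage mean by less than the gap between its duplicates. Without the second E14.5 array, the late difference was still over 1.5 times lower in 7 of the 44 and over 1.5 times higher in 1.

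The count of genes that limma called between E14.5 and E13.5 was 7 (6 higher and 1 lower), and 90 (69 and 21) with median scaling, 4 (3 and 1) after quantile normalization, 395 with normexp and 352 with a trended, robust prior. It was 0 with the mean of all probes, among genes detected on all 6 arrays, with no filter and with the 4 later arrays alone, where 2465, 2427, 2269 and 2536 genes had an unadjusted p below 0.05. Leaving out an array gave 0 to 47 calls. Of the 84, 39 were called with normexp, 35 with the trended prior and 7 with median scaling, beside 395, 352 and 90 genes in all. Nothing is read from these counts of the 84, because the same contrast chose them. The array number as a replicate block gave 1 call, and the labels do not say that it pairs arrays. The cause of these differences was not tested.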

Other observations

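Genes with the mirrored course, flat to E13.5 and lower at E14.5 by 0.8 or more, numbered 47 of the 12537 detected genes. Of 7724 unnamed probes above background on all 6 arrays, 41 (0.531%) met the late-rise rule, beside 0.67% of named genes. By chromosome, the highest shares were 8 genes on chromosome 19 (1.77% of its 453 detected genes) and 6 on chromosome 16 (1.53% of 393). These shares were not tested. The Y held 0 of the 84 among 6 detected genes, too few to read.

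Among the 7 genes called by limma between E14.5 and E13.5 (adjusted p = 0.0451 for each, fit on all 6 arrays), Rtl3 differed by 2.89 and Spag16, a sperm flagellum protein, by 2.34. Prss45 differed by 1.77, Arsj by 1.73, Pi15 by 1.57 and P2ry14 by 1.32, while Ldoc1 fell by 1.4 on the log2 scale. Each was above background on 2 to 5 of the 6 arrays, so part of its values has no measured level. Rtl3 and Prss45 had first steps of -0.56 and -0.07, and P2ry14 had one of 2.73.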
